A study of Mus musculus with 12 samples.

Results

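The comparison was of regulatory T cells (Tregs) from mice given DMαKG, dimethyl α-ketoglutarate, with Tregs from mice given vehicle, taken across 2 genotypes. All 12 libraries of the series enter it, 6 with DMαKG and 6 with vehicle, chosen by the labelled treatment and not by any measured value. Each treatment group holds 3 wild-type (WT) mice, Foxp3YFP-cre TKT+/+, and 3 Treg-specific transketolase knockouts (cKO), Foxp3YFP-cre TKTfl/fl. Mice of every group were 7-week-old C57BL/6 and carried the Cre recombinase and yellow fluorescent protein from the Foxp3 locus, so the vehicle WT mice share that allele. The treatment was in the drinking water from pregnancy onward, and the cells were sorted as CD4+CD25+YFP+ from spleen and lymph node. The design text gives 3 mice a group. Litters are not named in the labels, so mice that shared a mother cannot be told apart from independent ones.

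α-Ketoglutarate, also called 2-oxoglutarate, is made in the tricarboxylic acid (TCA) cycle by isocitrate dehydrogenases and from glutamate by transaminases. It is the co-substrate of a large family of dioxygenases. These include the TET enzymes that oxidise 5-methylcytosine in DNA, the JmjC enzymes that demethylate histones, and the prolyl hydroxylases that mark HIF proteins for degradation. Its dimethyl ester crosses cell membranes and is hydrolysed to α-ketoglutarate inside the cell. Tregs restrain other immune cells through Foxp3-dependent receptors such as CTLA-4.

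Summed estimated counts ran from 15706791 to 18878525 per library, and 12903 of 17955 genes had enough counts for testing. Tkt, the deleted gene, lay between 102 and 194 CPM (read counts scaled to library size) in WT libraries and between 26.2 and 41.8 CPM in cKO libraries. Foxp3, which overlaps Ccdc22 so that reads of the pair cannot be told apart without strand, lay between 332 and 412 CPM with vehicle and between 279 and 545 CPM with DMαKG. Cd4 was at 644 CPM or more in every library and Cd8a at 7.17 CPM or less. On the first principal component, which held 29.0% of the variance, 5 DMαKG libraries lay between 12.7 and 47.0 and the vehicle libraries between -32.9 and 2.77. The other DMαKG library, WT replicate 3, lay at -29.7, among the vehicle libraries. Mean CPM of Y-linked genes was 63.8 or more in 8 libraries and 13.9 or less in 4, of which 3 were from DMαKG mice and 1 from a vehicle mouse. Of the 4, WT DMαKG replicate 2 was at 13.9 CPM, between the others and the 8. WT vehicle replicate 3 was at 0.648 CPM, and cKO DMαKG replicates 1 and 3 were at 0.993 and 1.65 CPM. The cKO vehicle libraries were at 101, 128 and 131 CPM, and cKO DMαKG replicate 2 was at 93.4 CPM. The part that sex of the mice played in the values below was not tested beyond a fit with Y-linked expression as a covariate, which called the same single gene. That fit had 1550 genes at edgeR's unadjusted p under 0.05, against 2030 without the covariate. The median of macrophage and monocyte markers went from 0.24 to -0.14 with it, and that of effector Treg genes from 0.14 to 0.008. Medians moved less for replication-dependent histones (0.81 to 0.80) and interferon-stimulated genes (-0.34 to -0.29).

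**Figure D1:**
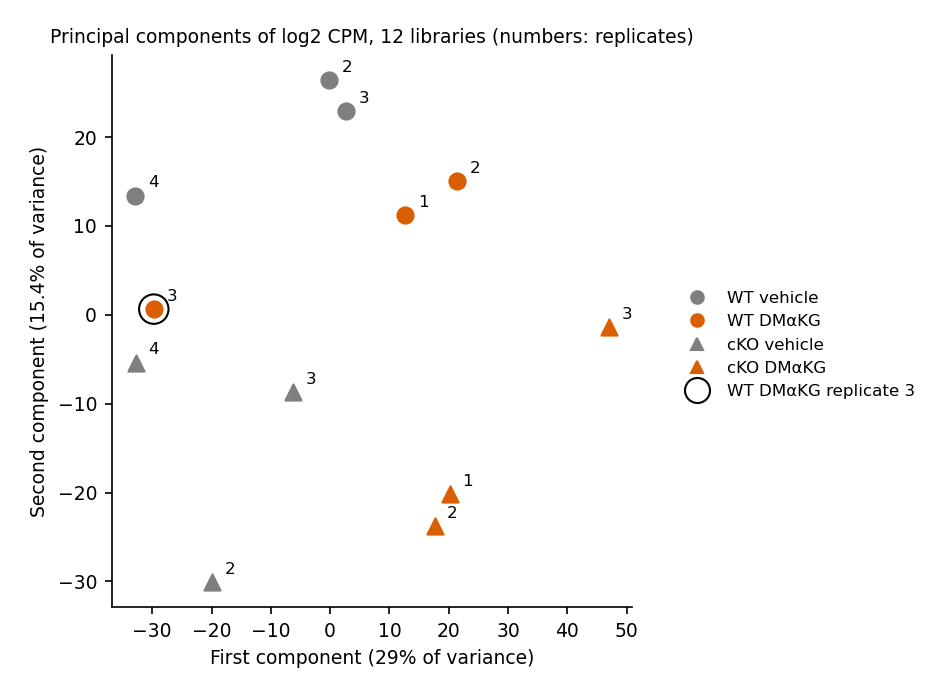
Principal components of log2 CPM, with the first component (29.0% of variance) on the horizontal axis and the second on the vertical axis, 1 point per library and the replicate number beside it. Grey marks vehicle, orange DMαKG, circles WT and triangles cKO. The ringed WT DMαKG replicate 3 lies at -29.7 on the first component, while the other DMαKG libraries lie at 12.7 or above.

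DMαKG was tested against vehicle with genotype as a factor by edgeR's quasi-likelihood test, 2-sided, adjusted by the Benjamini-Hochberg method over all genes tested. A single gene, the linker histone H1f3, rose, which is 0.00775% of the genes tested, and no gene fell (0%). At an unadjusted p under 0.05, 806 genes were higher (6.25% of those tested) and 1224 were lower (9.49%). The median log2 fold change of all genes was 0.002, with a median standard error of 0.13. All 6 DMαKG libraries lay above all 6 vehicle libraries in 31 genes (0.24%) and below them in 32 (0.248%).

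The count of calls rested on 1 library. Without WT DMαKG replicate 3, 258 genes rose (1.97% of 13112 tested) and 602 fell (4.59%), and 1359 (10.4%) and 1795 (13.7%) had an unadjusted p under 0.05 in those directions. Leaving out any other library gave 0 to 2 genes higher and 0 or 1 lower. Of the 806 genes higher at an unadjusted p under 0.05, WT DMαKG replicate 3 was the lowest DMαKG library in 540. Of the 1224 lower genes it was the highest DMαKG library in 1009. DESeq2's Wald test, which kept all 12 libraries, called 84 genes higher and 182 lower, and 252 of these 266 were also called by edgeR without that library. What sets this library apart was not tested. Because the library was singled out from these same data, a smaller p without it is no separate support for a gene. Values below are over all 12 libraries unless they are said to be without WT DMαKG replicate 3.

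Of the 5 H1 linker histone genes examined, H1f1 to H1f5, 4 were higher in every DMαKG library than in any vehicle library. H1 proteins bind the DNA that enters and leaves the nucleosome and compact chromatin, and H1f1 to H1f5 are replication-dependent genes of the histone clusters on chromosome 13. The 4 were H1f3, H1f4, H1f5 and H1f1, and 0.24% of all genes met the same condition. H1f1 and the core histone H2bc18, described further on, were chosen after their values were seen. All values rest on few reads, and replication-dependent histone transcripts normally end in a stem-loop without a poly(A) tail. The way messenger RNA was selected for the libraries is not stated in the labels, and the levels may cover only part of these transcripts.

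The 250 bases before the RefSeq start of the 4 genes (GRCm38.p6, the build also called mm10) are shown because each of the 4 genes was higher in every DMαKG library than in any vehicle library. Capitals mark the H1 box AAACACA and the CCAAT box, each searched on both strands, as TGTGTTT and ATTGG on the other. The windows are chr13:23554782-23555031 on the plus strand for H1f3, chr13:23622559-23622808 on the minus strand for H1f4, chr13:21780626-21780875 on the minus strand for H1f5 and chr13:23763418-23763667 on the plus strand for H1f1.
H1f3: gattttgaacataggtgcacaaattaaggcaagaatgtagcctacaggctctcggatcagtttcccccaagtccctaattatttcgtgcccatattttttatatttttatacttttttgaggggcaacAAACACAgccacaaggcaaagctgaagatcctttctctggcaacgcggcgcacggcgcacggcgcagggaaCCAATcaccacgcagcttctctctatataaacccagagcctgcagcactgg
H1f4: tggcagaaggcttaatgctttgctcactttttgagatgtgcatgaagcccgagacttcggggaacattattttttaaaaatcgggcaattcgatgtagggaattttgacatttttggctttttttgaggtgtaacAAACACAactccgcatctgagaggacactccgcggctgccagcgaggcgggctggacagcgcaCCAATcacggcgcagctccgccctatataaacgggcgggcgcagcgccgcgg
H1f5: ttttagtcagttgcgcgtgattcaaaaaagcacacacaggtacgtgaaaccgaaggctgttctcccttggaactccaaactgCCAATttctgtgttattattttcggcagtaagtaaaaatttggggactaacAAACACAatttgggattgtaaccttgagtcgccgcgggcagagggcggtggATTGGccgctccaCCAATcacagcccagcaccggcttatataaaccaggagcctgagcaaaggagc
H1f1: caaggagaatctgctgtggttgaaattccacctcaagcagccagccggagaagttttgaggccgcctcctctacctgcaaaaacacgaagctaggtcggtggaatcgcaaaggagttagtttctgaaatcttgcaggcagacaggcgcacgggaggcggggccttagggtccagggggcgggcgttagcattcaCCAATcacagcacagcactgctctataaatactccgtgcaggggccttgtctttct
The H1 box begins 122 bases before the start in H1f3, 115 in H1f4 and 117 in H1f5, and these letters are not in the H1f1 window. A CCAAT box begins 51, 52, 53 and 56 bases before the start of H1f3, H1f4, H1f5 and H1f1. Among 27025 RefSeq promoters of the same length, 6.22% hold the H1 box letters and 34.5% hold CCAAT. H1f2, whose window also holds both, was the examined H1 gene whose libraries overlapped. The matches describe letters and not binding.

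H1f3 (gene 14957, chr13:23555032-23555807) had 0.565, 1.17 and 0.21 CPM in the WT vehicle libraries and 0.758, 0.769 and 0.619 CPM in the cKO vehicle libraries. With DMαKG it had 2.52, 3.46 and 2.77 CPM in WT and 4.79, 5.02 and 3.94 CPM in cKO, from 43 to 87 reads a library against 4 to 21 with vehicle. The lowest DMαKG library was above the highest vehicle library, and WT DMαKG replicate 3, at 2.77 CPM, lay with the others. The log2 fold change was 2.43 ± 0.29 (SE, n = 6 against 6, edgeR adjusted p = 0.0158), 2.17 within WT and 2.67 within cKO. It was past the threshold in 7 of the 12 fits that left out 1 library, with a log2 fold change of 2.26 to 2.76. The call was lost without WT vehicle replicate 2 (edgeR adjusted p = 0.0812), cKO vehicle replicate 2 (0.0849), cKO vehicle replicate 3 (0.108), and also without cKO DMαKG replicate 1 (0.0762) or 3 (0.052).

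H1f4 ran from 0.258 to 2.03 CPM with vehicle, median 1.43, and from 3.46 to 6.41 CPM with DMαKG, median 5.25. The groups did not overlap, and the log2 fold change was 2.04 ± 0.34 (SE), with an edgeR adjusted p of 0.116 and of 0.0105 without WT DMαKG replicate 3. H1f5 ran from 0.108 to 0.472 CPM with vehicle and from 0.527 to 1.47 CPM with DMαKG, a log2 difference of 2.14 ± 0.41 (SE). H1f1 had 0 to 0.565 CPM with vehicle and 0.635 to 2.01 CPM with DMαKG, a log2 difference of 2.25 ± 0.54 (SE). In H1f5 and H1f1 the nearest vehicle and DMαKG libraries were close. Their vehicle libraries alone held too few reads for the expression filter, so these genes entered the test through their DMαKG libraries. Both missed the threshold with all libraries (edgeR adjusted p = 0.179 for each), and without WT DMαKG replicate 3 their adjusted p was 0.0102 and 0.0282. H1f2, the most abundant of the 5 per length with a mean of 34.5 TPM (a level scaled by transcript length) in vehicle libraries against 3.89 TPM for H1f4, ran from 2.01 to 17.7 CPM with vehicle and from 12.6 to 21.9 CPM with DMαKG. Its groups overlapped, with a log2 difference of 0.77 ± 0.40 (SE).

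Core histones were higher too, by less. Of 28 tested replication-dependent histone genes of 60 in the table, 26 were higher and 2 lower. Their median log2 difference was 0.81, against 0.002 for all genes. H1f3 alone of these passed the threshold with all libraries. In WT the median was 0.81 and in cKO 0.88. By class, the median was 0.87 for 8 H2A genes, 0.16 for 6 H2B genes, 1.165 for 3 H3 genes and 0.42 for 6 H4 genes, against 2.14 for the 5 H1 genes. H2bc18 was the other member whose libraries did not overlap, though they nearly touched, at 0.0542 to 0.339 CPM with vehicle and 0.34 to 1.29 CPM with DMαKG. Leaving out 1 library at a time moved the list's median between 0.66 and 0.96. Many of these genes were tested at few counts, and a gene with too few reads in every group left the test. H1f5, H1f1 and H2bc18 entered it through their DMαKG libraries, being near the floor with vehicle. The number of higher members and the list's median are thus not free of the filter.

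**Figure D2:**
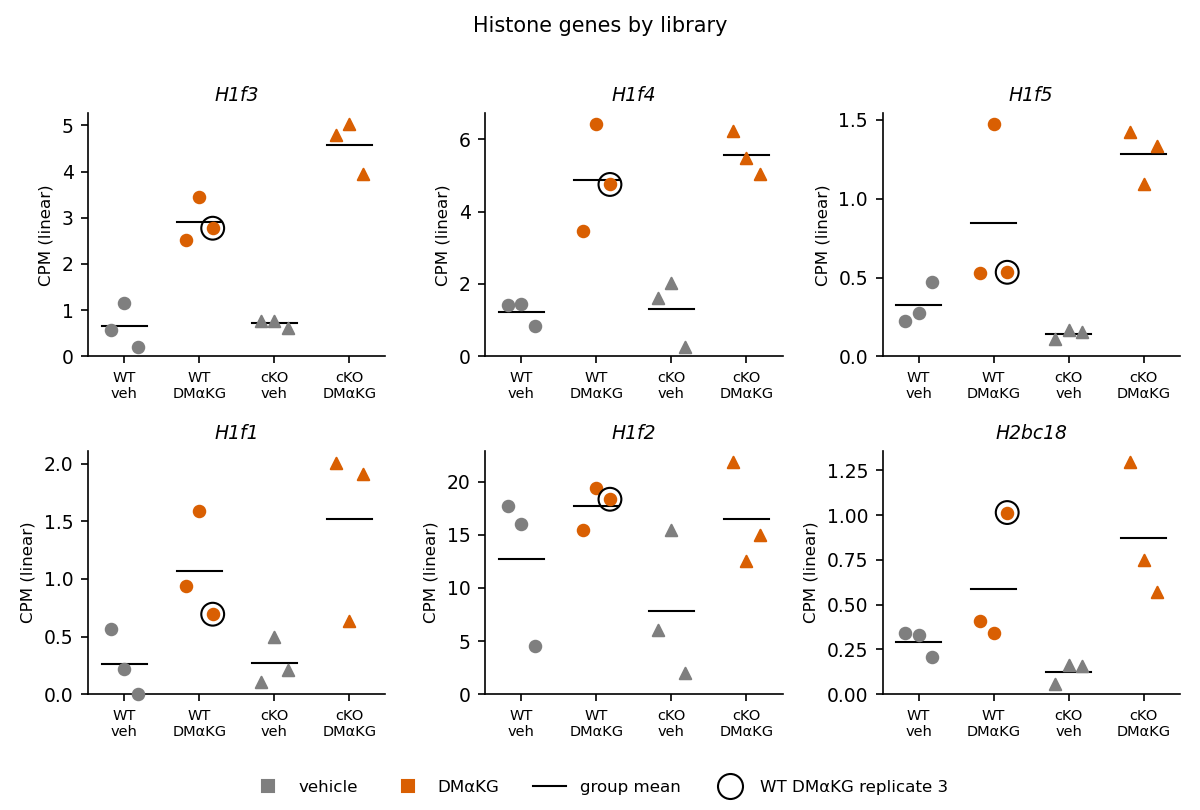
CPM on a linear axis for 5 H1 linker histone genes and H2bc18 in the 4 groups, 1 point per library and a line at each group mean. H1f3 lies at 1.17 CPM or less in vehicle libraries and at 2.52 CPM or more with DMαKG, and the ringed WT DMαKG replicate 3 is not apart, while H1f2 overlaps between treatments.

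Other genes of S phase and mitosis were mostly higher, with medians that moved when single libraries were left out. Of 42 DNA replication genes 38 were higher, with a median of 0.22 (0.03 in WT and 0.45 in cKO), and of 40 mitosis genes 38 were higher, with a median of 0.38 (0.03 in WT and 0.73 in cKO). None passed the threshold with all libraries or without WT DMαKG replicate 3. Summed mitosis genes ran from 372 to 1520 CPM with vehicle and from 698 to 1836 CPM with DMαKG. A difference between genotypes was not tested for either list. Leaving out 1 library moved the mitosis median between 0.17 (without cKO DMαKG replicate 1) and 0.66 (without cKO vehicle replicate 4). It moved the DNA replication median between 0.070 (without cKO vehicle replicate 2) and 0.41 (without cKO vehicle replicate 4). The lowest sum of mitosis genes was in cKO vehicle replicate 2, and the highest vehicle library was cKO vehicle replicate 4, so the cKO vehicle libraries covered most of the range. Anln, a scaffold of the cytokinetic ring, had a log2 difference of 0.70 ± 0.38 (SE). Tk1, thymidine kinase, had 0.43 ± 0.17 (SE) and Pola1, the catalytic subunit of DNA polymerase alpha, 0.55 ± 0.23 (SE). Anln and Tk1 each overlap another gene. In bulk RNA, fewer cells of a kind and less RNA per cell cannot be told apart.

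Among the other genes with the smallest p, Dnah7a, an axonemal dynein heavy chain, ran from 28.3 to 39.2 CPM with vehicle and from 40.7 to 73.3 CPM with DMαKG. The groups did not overlap and WT DMαKG replicate 3, at 60.7 CPM, lay within the DMαKG range. Its log2 difference was 0.85 ± 0.13 (SE, edgeR adjusted p = 0.116), nearly the same in WT (0.88) and cKO (0.82). Cst7, cystatin F, an inhibitor of lysosomal cathepsins in cytotoxic and myeloid cells, had medians of 50.6 CPM with vehicle and 77.1 CPM with DMαKG and a log2 difference of 0.63 ± 0.11 (SE, edgeR adjusted p = 0.159, or 0.017 without WT DMαKG replicate 3). Slc14a1, a urea transporter, differed by 0.57 and Dclk2, a microtubule-binding kinase, by 0.64. Npcd, which overlaps Cbx6 and Nptxr, differed by 1.63 on few reads.

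Several receptors of T cell homing and co-stimulation were among the higher genes. Ccr7, the receptor that guides T cells to lymph node paracortex, ran from 166 to 353 CPM with vehicle. With DMαKG it had 574, 706 and 157 CPM in WT and 788, 872 and 1148 CPM in cKO. Thus 5 DMαKG libraries lay above every vehicle library and WT DMαKG replicate 3 below them all. The log2 difference was 1.56 ± 0.31 (SE, edgeR adjusted p = 0.179), and it was 1.78 with an adjusted p of 0.00302 without that library. Ctla4, which removes the CD80 and CD86 ligands from antigen-presenting cells, had 490 to 949 CPM with vehicle. With DMαKG it had 1722, 1722 and 514 CPM in WT and 1965, 2307 and 3001 CPM in cKO. The same library again lay in the vehicle range, and the log2 difference was 1.29 ± 0.30 (SE, edgeR adjusted p = 0.179), or 1.52 with an adjusted p of 0.00373 without it. Ccr7 and Ctla4 each passed the threshold in 1 of the 12 fits that left out 1 library. Without WT DMαKG replicate 2 their edgeR adjusted p was 0.401.

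Tnfrsf4, the co-stimulatory receptor OX40, ran from 152 to 257 CPM with vehicle and from 183 to 468 CPM with DMαKG, a log2 difference of 0.65 ± 0.13 (SE). Its reads may include some of the overlapping Sdf4. Ccr8, a chemokine receptor of activated Tregs, had medians of 41.1 and 81.2 CPM and a log2 difference of 0.88 ± 0.19 (SE). Arrdc3, an α-arrestin that directs the endocytosis of receptors, had 17.4 to 27.6 CPM with vehicle and 22.9 to 85.2 CPM with DMαKG, a log2 difference of 1.31 ± 0.24 (SE). In all 3 genes WT DMαKG replicate 3 was the lowest DMαKG library, and without it their edgeR adjusted p was 0.00537, 0.00372 and 0.00302. Tnfrsf8, or CD30, was the member of the TNF receptor superfamily whose libraries did not overlap, at 12.7 to 20.7 CPM with vehicle and 21.03 to 32.1 CPM with DMαKG. Cd28, the main co-stimulatory receptor, had medians of 421 and 742 CPM and a log2 difference of 0.75 ± 0.23 (SE, edgeR adjusted p = 0.187, or 0.0099 without WT DMαKG replicate 3). Cd83, a surface protein of activated Tregs and dendritic cells, differed by 0.67 ± 0.18 (SE) and Slamf1 by 0.33 ± 0.10 (SE).

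The receptor families did not move as wholes. Of 19 TNF receptor superfamily genes 8 were higher and 11 lower, with a median of -0.13, and 6 of the higher and 5 of the lower had an unadjusted p under 0.05, against 6.25% and 9.49% of all genes. Relt, one of the lower members, had medians of 41.2 CPM with vehicle and 27.97 CPM with DMαKG and a log2 difference of -0.49 ± 0.12 (SE). Of 22 co-stimulatory and inhibitory receptors 14 were higher (median 0.09), and of 28 chemokine receptors and homing genes 15 were higher (median 0.03). S1pr4, a sphingosine-1-phosphate receptor, had a log2 difference of -0.42 ± 0.12 (SE).

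Of 33 genes of the Treg core signature 27 were higher, with a median of 0.20, 10 of them at an unadjusted p under 0.05 (6.25% of all genes) and 5 past the threshold without WT DMαKG replicate 3 (1.97% of all genes). The defining members were close between treatments. The log2 difference was 0.18 ± 0.14 (SE) for Foxp3, 0.02 ± 0.13 for Il2ra, the high-affinity interleukin-2 receptor chain, and 0.13 ± 0.10 for Ikzf2, the transcription factor Helios. Il2ra ran from 467 to 776 CPM with vehicle and from 467 to 651 CPM with DMαKG. Ikzf2 ran from 960 to 1286 CPM and from 1158 to 1543 CPM. Tkt itself differed by 0.17 ± 0.15 (SE). Effector Treg genes, 21 of 34 higher, had medians of -0.07 in WT and 0.49 in cKO, with no test of that difference, and 0.020 across both without cKO DMαKG replicate 1. Ahr, the aryl hydrocarbon receptor, is in that list with a log2 difference of 0.50 ± 0.15 (SE). Of 18 suppressive molecules 11 were higher (median 0.07). These include Penk, the enkephalin precursor, at 0.44 ± 0.14 (SE), and Entpd1, the ectonucleotidase CD39, at 0.35 ± 0.13 (SE). Of 23 T helper lineage genes 14 were lower (median -0.12), with Rora at 0.67 ± 0.22 (SE) and Tbx21, or T-bet, at -0.70 ± 0.28 (SE).

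**Figure D3:**
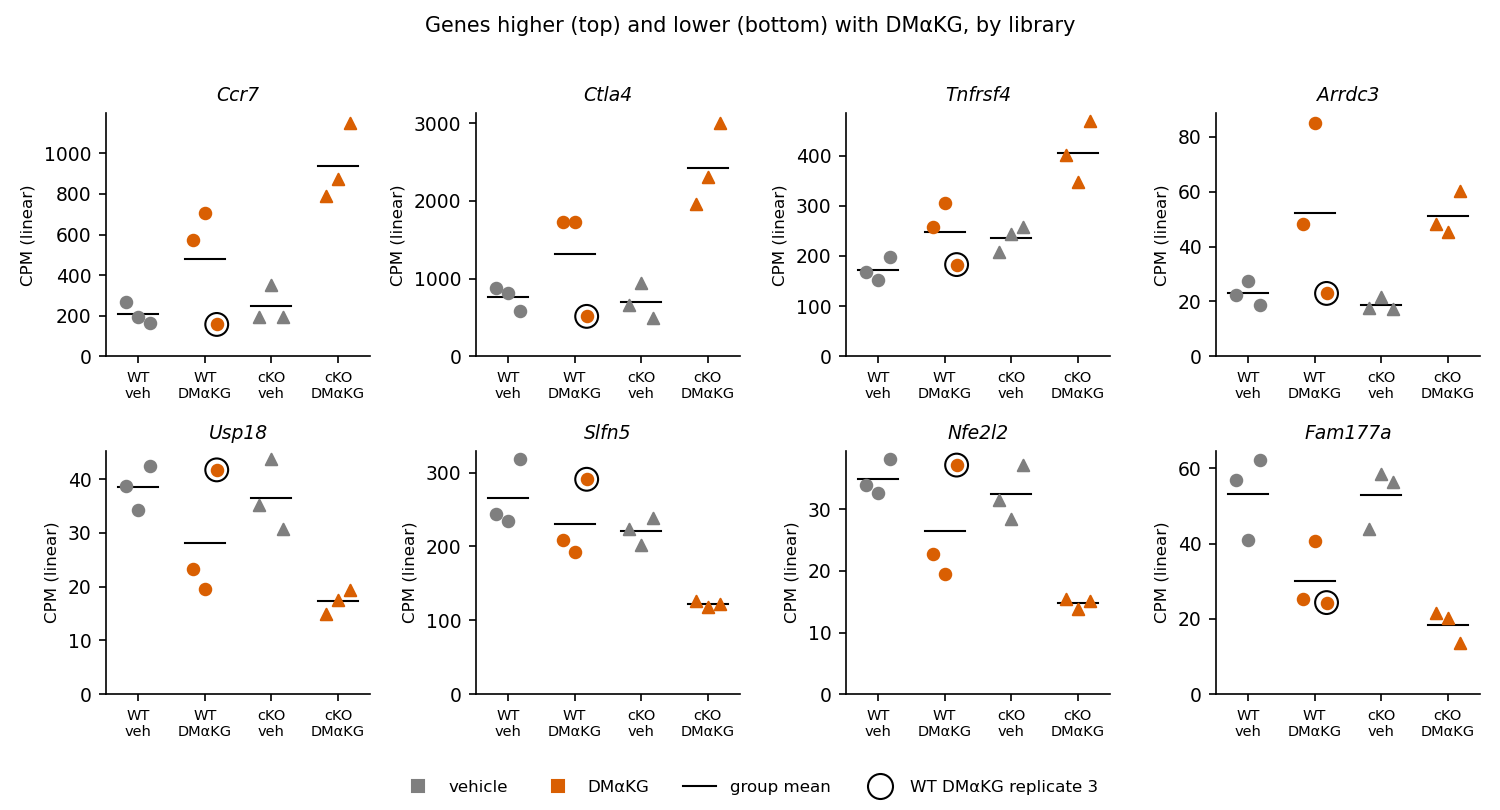
CPM on a linear axis for 4 genes higher and 4 genes lower with DMαKG, by group, 1 point per library and a line at each group mean. The ringed WT DMαKG replicate 3 lies with the vehicle libraries in 7 of the genes, for example at 157 CPM for Ccr7 and 41.7 CPM for Usp18, and with the DMαKG libraries for Fam177a at 24.3 CPM.

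Genes of the interferon response were lower. These genes are switched on when interferons activate a complex that contains STAT2 and IRF9, which binds the interferon-stimulated response element (ISRE) in their promoters, and many block viral replication. Of 48 interferon-stimulated genes 45 were lower and 3 higher. Their median log2 difference was -0.34, against 0.002 for all genes. At an unadjusted p under 0.05, 26 were lower and 0 higher, against 9.49% and 6.25% of all genes. None passed the threshold with all libraries, and 17 fell without WT DMαKG replicate 3, where 4.59% of all genes did. The median was -0.17 in WT and -0.51 in cKO, and a difference between genotypes was not tested for the list. Their summed level was 4921 to 6931 CPM with vehicle and 4185 to 6318 CPM with DMαKG, and the highest DMαKG library was WT replicate 3. Leaving out 1 library at a time moved the median between -0.44 and -0.28.

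The promoters of Slfn5, Stat2 and Irgm1 are shown as those of the 3 list members with the smallest p among members whose window holds the ISRE letters GAAANNGAAA or TTTCNNTTTC. Capitals mark these letters in the 250 bases before the RefSeq start (GRCm38.p6). The windows are chr11:82951852-82952101 on the plus strand, chr10:128270248-128270497 on the plus strand and chr11:48871421-48871670 on the minus strand.
Slfn5: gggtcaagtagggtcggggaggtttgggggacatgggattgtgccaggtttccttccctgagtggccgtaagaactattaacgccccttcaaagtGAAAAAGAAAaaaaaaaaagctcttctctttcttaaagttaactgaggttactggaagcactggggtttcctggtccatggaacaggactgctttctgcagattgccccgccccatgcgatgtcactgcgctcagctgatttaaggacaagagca
Stat2: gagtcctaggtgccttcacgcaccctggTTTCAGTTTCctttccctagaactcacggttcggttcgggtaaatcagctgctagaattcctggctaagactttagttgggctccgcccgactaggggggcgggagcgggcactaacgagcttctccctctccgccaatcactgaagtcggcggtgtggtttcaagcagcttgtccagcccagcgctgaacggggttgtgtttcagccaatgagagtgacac
Irgm1: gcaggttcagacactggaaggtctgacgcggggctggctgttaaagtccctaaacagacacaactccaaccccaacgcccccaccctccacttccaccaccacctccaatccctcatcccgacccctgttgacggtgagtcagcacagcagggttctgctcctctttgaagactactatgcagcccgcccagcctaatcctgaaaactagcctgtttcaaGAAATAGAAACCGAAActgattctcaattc
The letters were in 20 of 37 tested interferon-stimulated genes with a RefSeq promoter (54.05%), in 11 of the 20 that were lower at an unadjusted p under 0.05 (55.0%), and in 3.04% of all 27025 promoters. The share among the lower members was thus close to that of the list as a whole. In Slfn5 the match lies in a run of A bases, and in Irgm1 a pair of overlapping matches begins 30 bases before the start.

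Usp18, the protease that removes ISG15 and restrains interferon receptor signalling, had 38.7, 34.2 and 42.5 CPM in WT vehicle and 35.1, 43.8 and 30.8 CPM in cKO vehicle libraries. With DMαKG it had 23.3, 19.6 and 41.7 CPM in WT and 14.9, 17.5 and 19.5 CPM in cKO. The 5 other DMαKG libraries lay below every vehicle library and WT DMαKG replicate 3 within their range. The log2 difference was -0.76 ± 0.19 (SE, edgeR adjusted p = 0.179), and -0.97 with an adjusted p of 0.00372 without that library. Usp18 passed the threshold in 1 of the 12 fits that left out 1 library. Slfn5, a Schlafen family member, ran from 202 to 319 CPM with vehicle and from 118 to 291 CPM with DMαKG, a log2 difference of -0.53 ± 0.14 (SE). Parp14, a mono-ADP-ribosyltransferase, had medians of 334 and 257 CPM and a log2 difference of -0.34 ± 0.09 (SE). Stat2, a subunit of the factor that binds the element, differed by -0.42 ± 0.12 (SE), and Irgm1, an immunity-related GTPase, by -0.60 ± 0.18 (SE). Of 21 genes of MHC class I presentation 13 were higher (median 0.07), and 0 had an unadjusted p under 0.05.

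Zinc finger genes were lower as a group. Of 350 tested genes with a Zfp symbol, most of which encode DNA-binding zinc finger proteins, 261 were lower and 89 higher, with a median of -0.16 (-0.13 in WT and -0.22 in cKO). At an unadjusted p under 0.05, 97 were lower and 11 higher, against 9.49% and 6.25% of all genes. Without WT DMαKG replicate 3, 60 fell and 3 rose, against 4.59% and 1.97%. Zfp82 ran from 8.81 to 9.75 CPM with vehicle and from 4.62 to 8.16 CPM with DMαKG, and Zfp629 from 1.67 to 2.55 CPM and from 0.75 to 1.60 CPM. Neither overlapped between treatments, and their log2 differences were -0.65 ± 0.14 and -0.99 ± 0.22 (SE). Zfp112 differed the other way, by 0.72 ± 0.16 (SE).

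The lowest p of any lower gene was that of Fam177a, a gene of little-known function that overlaps Gm2436. It ran from 40.9 to 62.1 CPM with vehicle and from 13.7 to 40.6 CPM with DMαKG, with a log2 difference of -1.17 ± 0.19 (SE, edgeR adjusted p = 0.116). The groups did not overlap, though the nearest libraries were close, and WT DMαKG replicate 3 had 24.3 CPM. Of the 12 lower genes with the smallest p, LOC115490200 (-0.64), 1700102P08Rik (-0.85), Tmem170 (-0.92), Napepld (-0.88) and Dnajc18 (-0.42) also did not overlap between treatments. Napepld makes N-acylethanolamines such as anandamide, and Dnajc18 is an Hsp40 co-chaperone. 1700102P08Rik overlaps Iho1.

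WT DMαKG replicate 3 was the highest DMαKG library in 11 of the 12 lower genes, the exception being Fam177a. In the 5 that follow, the groups also overlapped. Pde3b, which hydrolyses cyclic AMP and is held low by Foxp3 in Tregs, ran from 13.2 to 26.4 CPM with vehicle and from 8.61 to 14.8 CPM with DMαKG. Its log2 difference was -0.71 ± 0.13 (SE, edgeR adjusted p = 0.173). Hs3st3b1, a heparan sulphate sulphotransferase, differed by -0.75 and Kif3c, a kinesin that overlaps I920046F24Rik, by -0.58. Pwwp2a, which binds nucleosomes carrying the variant H2A.Z, differed by -0.48 and Nradd, a death-domain membrane protein, by -1.10. Across the lower genes named here from the 12, the edgeR adjusted p was 0.116 to 0.179 with all libraries and 0.00537 to 0.0182 without WT DMαKG replicate 3.

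The lists that hold the enzymes using α-ketoglutarate as co-substrate had medians close to 0. Of 16 TET and DNA methylation genes 6 were higher and 10 lower (median -0.06). In that list only the Tet genes encode such enzymes, so its median is mostly that of other genes. Tet2 ran from 69.7 to 110 CPM with vehicle and from 97.4 to 141 CPM with DMαKG, a log2 difference of 0.42 ± 0.11 (SE, edgeR adjusted p = 0.18, or 0.0217 without WT DMαKG replicate 3). Tet3 ran from 171 to 313 CPM and from 143 to 244 CPM, a difference of -0.34 ± 0.14 (SE). Tet1, at 19.8 to 26.5 CPM with vehicle and 18.2 to 26.2 CPM with DMαKG, differed by -0.03 ± 0.10 (SE), a sign that changed between fits. Ogt, the O-GlcNAc transferase that partners TET proteins, differed by -0.48 ± 0.16 (SE).

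Of 21 JmjC histone demethylase genes 9 were higher and 12 lower (median -0.05). Kdm6b, which removes methyl groups from lysine 27 of histone H3, differed by 0.45 ± 0.15 (SE), with medians of 195 and 269 CPM. Jmjd1c, which overlaps Reep3, differed by 0.35 ± 0.13 (SE). Jmjd6, a lysyl hydroxylase that overlaps Mettl23, had medians of 49.0 and 37.1 CPM and differed by -0.41 ± 0.10 (SE). Of 33 other dioxygenases, among them the prolyl hydroxylases and AlkB homologues, 22 were lower (median -0.07), 7 of them at an unadjusted p under 0.05 against 9.49% of all genes, and 0 were higher at that level. Their summed level ran from 953 to 1005 CPM with vehicle and from 805 to 958 CPM with DMαKG, so the groups overlapped. Members with the smallest p included Alkbh4 at -0.46 ± 0.13 (SE), Alkbh2 (overlapping Ung) at -0.38 ± 0.14 and Jmjd4 (overlapping Snap47 and Zfp867) at -0.22 ± 0.08. Of 25 HIF target genes 16 were higher (median 0.07), and Narf had a log2 difference of -0.43 ± 0.11 (SE).

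Genes of α-ketoglutarate supply and central carbon metabolism were also near no change. Of 30 genes of the TCA cycle and α-ketoglutarate handling 18 were higher (median 0.04). Idh1, the cytosolic isocitrate dehydrogenase, had medians of 6.16 and 4.92 CPM and differed by -0.38 ± 0.14 (SE). Idh3g, a subunit of the mitochondrial enzyme, differed by 0.23 ± 0.10 and Suclg2, a subunit of succinyl-CoA ligase, by 0.19 ± 0.09. Of 25 glutamine and glutamate genes 17 were higher (median 0.05). Slc3a2, the heavy chain of amino acid exchangers, had medians of 134 and 204 CPM and differed by 0.55 ± 0.17 (SE, edgeR adjusted p = 0.187, or 0.017 without WT DMαKG replicate 3). Got1, the cytosolic aspartate transaminase, differed by 0.49 ± 0.17, and Gfpt1, which feeds glutamine nitrogen into hexosamines, by -0.23 ± 0.10.

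Of 26 glycolysis genes 15 were higher (median 0.06), with the lactate carrier Slc16a1 at 0.49 ± 0.17 (SE), Aldoc at 0.39 ± 0.16 and the glucose carrier Slc2a1 at 0.22 ± 0.09. Of 12 pentose phosphate pathway genes 7 were higher (median 0.04), with H6pd at -0.27 ± 0.11 (SE). Fatty acid oxidation genes had a median of 0.03 over 26 tested, with Echs1, which overlaps Paox, at 0.32 ± 0.09 and Cpt2 at -0.45 ± 0.13. Cholesterol synthesis genes had a median of 0.07 over 24, with Acat2 at -0.51 ± 0.14 (SE).

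Ribosomal protein genes were nearly all higher, by an amount that differed between libraries. Of 81 cytosolic ribosomal protein genes 80 were higher, with a median of 0.27 (0.20 in WT and 0.36 in cKO), and 11 had an unadjusted p under 0.05, against 6.25% of all genes higher at that level. Rpl3 ran from 1821 to 2510 CPM with vehicle and from 1969 to 3963 CPM with DMαKG, a log2 difference of 0.34 ± 0.13 (SE), and Rpl7a differed by 0.29 ± 0.12. Rpl3l, a muscle paralogue of Rpl3, did not overlap between treatments but stayed under 0.866 CPM, and reads of near-identical copies may be split between them. Relative to the vehicle mean the list stood at 0.88 on the log2 scale in cKO DMαKG replicate 3, 0.057 in cKO DMαKG replicate 2 and -0.064 in WT DMαKG replicate 3. Without cKO DMαKG replicate 3, its median was 0.13. In that library short transcripts stood above long ones by 0.28 on the log2 scale, and with each library's length and GC trend removed the list's median was 0.25. Of 80 nuclear oxidative phosphorylation genes 73 were higher (median 0.12), with Ndufa10 at 0.22 ± 0.09 (SE). Their median was 0.043 without cKO DMαKG replicate 3 and 0.20 without cKO vehicle replicate 4. By comparison, 41 of 78 mitochondrial ribosomal protein genes were higher (median 0.02).

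Immediate-early genes, which respond within minutes to receptor or stress signals and also to cell handling, followed individual libraries. Of 39 tested 32 were higher, with a median of 0.55 (0.45 in WT and 0.56 in cKO), 7 higher and 2 lower at an unadjusted p under 0.05, against 6.25% and 9.49% of all genes. Without cKO vehicle replicate 3 the median was 0.86. Their summed level was 8471 CPM in WT DMαKG replicate 3, 5320 in WT vehicle replicate 4 and 5251 in cKO vehicle replicate 4. In the other 9 libraries it lay between 13259 and 27082 CPM with vehicle and between 21231 and 27704 CPM with DMαKG. The vehicle library at 27082 CPM was cKO replicate 3, and the next highest vehicle library, WT replicate 2, was at 18692 CPM. The same 3 libraries had the lowest positions on the first component. Without these 3 libraries the list's median was 0.32, and 81 genes rose and 189 fell in all. Whether handling moved with treatment in the other results was not tested. Nr4a3, an orphan nuclear receptor, differed by 0.60 ± 0.19 (SE) and Rgs1, a regulator of G protein signalling, by 0.68 ± 0.24. Egr2, a transcription factor induced by the T cell receptor, went the other way, with medians of 43.2 and 20.1 CPM and a log2 difference of -0.95 ± 0.29 (SE).

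Stress and nutrient signalling genes included several of the lower ones. Nfe2l2, the transcription factor NRF2 of the antioxidant response, ran from 28.4 to 38.2 CPM with vehicle and from 13.8 to 37.2 CPM with DMαKG. The highest DMαKG value was that of WT replicate 3, and the log2 difference was -0.76 ± 0.17 (SE, edgeR adjusted p = 0.179, or 0.00372 without that library). Keap1, which targets NRF2 for degradation, differed by -0.35 ± 0.14, while 22 of 32 NRF2 and antioxidant genes were higher (median 0.09), with Sod1 at 0.35 ± 0.11. Of 34 genes of mTOR, PI3K and nutrient signalling 26 were lower (median -0.08). Ddit4, an inhibitor of mTORC1, had medians of 99.7 and 50.04 CPM and differed by -1.08 ± 0.34 (SE, edgeR adjusted p = 0.195, or 0.0211 without WT DMαKG replicate 3). Mlst8 (overlapping Bricd5) differed by -0.35 ± 0.11 (SE) and Prkaa1, a catalytic subunit of AMPK, by -0.22 ± 0.08. Without cKO DMαKG replicate 3 the list's median was -0.011.

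Of 22 genes of interleukin-2 to STAT5 signalling 11 were higher and 11 lower. Osm, the cytokine oncostatin M, had medians of 15.0 and 7.79 CPM and differed by -0.88 ± 0.24 (SE), Socs4 by -0.46 ± 0.13 and Pim2, a survival kinase, by -0.37 ± 0.13. Of 70 heat shock and DNAJ genes 41 were lower (median -0.02), 12 of them at an unadjusted p under 0.05 against 9.49% of all genes, and 3 were higher at that level, with Dnajc28 at -0.86 ± 0.25 and Chordc1 at -0.39 ± 0.12.

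**Figure D4:**
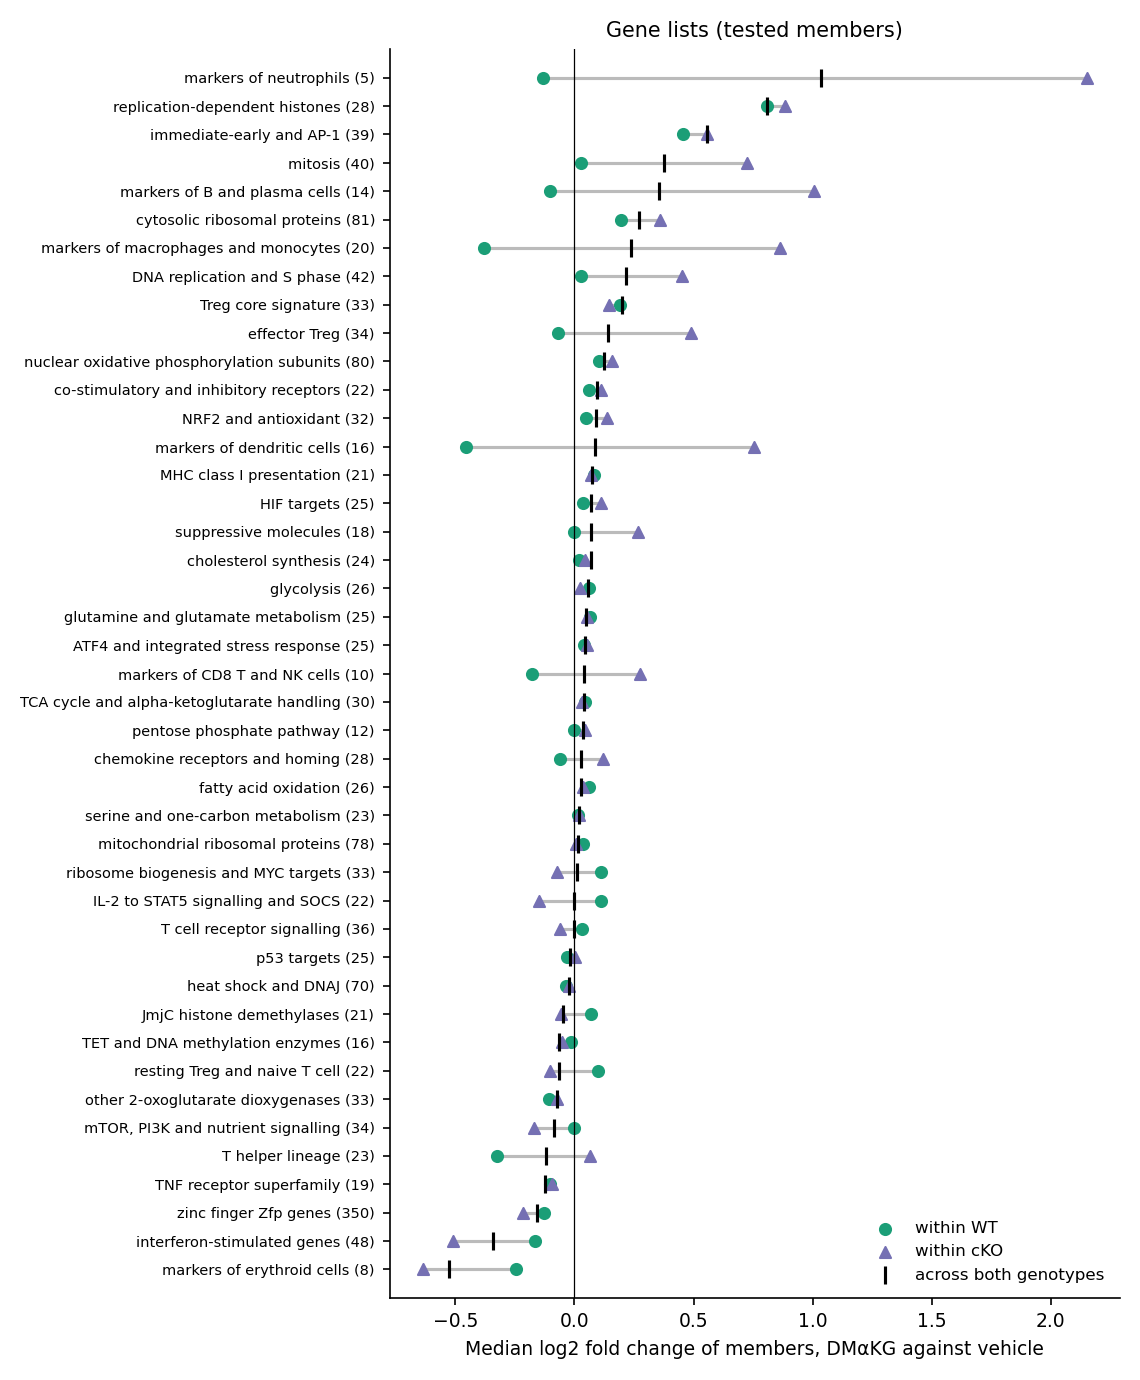
Median log2 fold change of DMαKG against vehicle for each gene list with 5 or more tested members, within WT (circles), within cKO (triangles) and across both (bars), with the number tested beside each name. Replication-dependent histones lie at 0.81 and 0.88 in the 2 genotypes, interferon-stimulated genes at -0.17 and -0.51, and most metabolic lists near 0.

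The effect was compared between genotypes from a model with 1 mean per group, in which the WT and cKO effects share no library. Across 12903 genes the log2 fold changes in WT and cKO had Pearson's r of 0.28 and Spearman's rho of 0.36. Genes are not independent replicates, and no p is given. Over all genes, 64.3% had the same sign in both genotypes. Of 352 genes with an unadjusted p under 0.05 in WT, 76.7% had the same sign in cKO, and of 2247 in cKO, 83.0% had the same sign in WT. Without WT DMαKG replicate 3, r was 0.39 and these shares were 91.8% and 88.7%, against 69.5% over all genes. That library was singled out for lying apart from the other DMαKG libraries, so higher agreement without it partly follows from the choice. Within either genotype alone, edgeR called 0 genes. The test of the difference between genotypes called 0 genes (0%), with 477 at an unadjusted p under 0.05.

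The 5 genes with the smallest p for that difference all had an edgeR adjusted p of 0.949. Ncoa7, a nuclear receptor coactivator, had a log2 difference of 0.22 in WT and -0.56 in cKO, Xcr1 of -0.59 and 1.81, Slc6a18 of -0.70 and 0.93, Haspin, a mitotic kinase inside Itgae, of 0.09 and 1.36, and Gm3512 of 0.16 and 1.37. DESeq2 called Ncoa7 (adjusted p = 0.00107). Larger sizes in cKO than in WT were seen for Ctla4 (1.79 and 0.80), Ccr7 (1.92 and 1.20) and Usp18 (-1.08 and -0.45). For each the edgeR adjusted p of the genotype difference was 0.949, and the WT mean includes replicate 3.

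Dendritic cell, macrophage and B cell markers had medians below 0 in WT and above 0 in cKO. A difference between genotypes was not tested for any marker list. Of 16 dendritic cell markers 8 were higher, with medians of -0.46 in WT and 0.75 in cKO. For 20 macrophage and monocyte markers, 15 of them higher, the medians were -0.38 and 0.86. For 14 B and plasma cell markers, 13 of them higher, they were -0.10 and 1.01. No marker of these lists passed the threshold. Without cKO DMαKG replicate 3 the medians across both genotypes were -0.10 for dendritic cell, -0.20 for macrophage and 0.0018 for B and plasma cell markers, against 0.08, 0.24 and 0.36 with it. The summed B and plasma cell markers ran from 80.4 to 109 CPM with vehicle and from 90.6 to 176 CPM with DMαKG, the macrophage markers from 87.9 to 331 CPM and from 97.6 to 376 CPM, and the dendritic cell markers from 162 to 332 CPM and from 168 to 385 CPM. The highest DMαKG library was cKO replicate 3 in each.

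No marker in the table was at a count of 0 in every library. Among the B cell markers Ebf1 and Vpreb3 were at 0 in some libraries, and among the others Cd14, Batf3, Cd209a and Clec10a. Of 12 neutrophil markers 10 were at 0 in some libraries, and S100a9 ran from 0 to 1.24 CPM with vehicle and from 0 to 11 CPM with DMαKG. Jchain, of plasma cells, had 29.8 CPM in cKO DMαKG replicate 3 and at most 2.94 CPM in the other DMαKG libraries. Siglech, of plasmacytoid dendritic cells, ran from 0.271 to 21.4 CPM with vehicle and from 1.10 to 2.99 CPM with DMαKG, and Ly6c2, of monocytes, differed by -0.87 ± 0.34 (SE). All 8 tested erythroid markers were lower (median -0.53, with -0.25 in WT and -0.64 in cKO), on few reads, with Slc4a1 at 0 to 2.73 CPM and Hbb-bs at 0 to 4.40 CPM with vehicle. Of 10 CD8 T and NK cell markers 7 were higher (median 0.04). The part of these cells in the differences above was not tested. H1f3 was at 3.94 CPM in cKO DMαKG replicate 3, the library highest in B cell and neutrophil markers, and at 5.02 CPM in cKO DMαKG replicate 2.

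**Figure D5:**
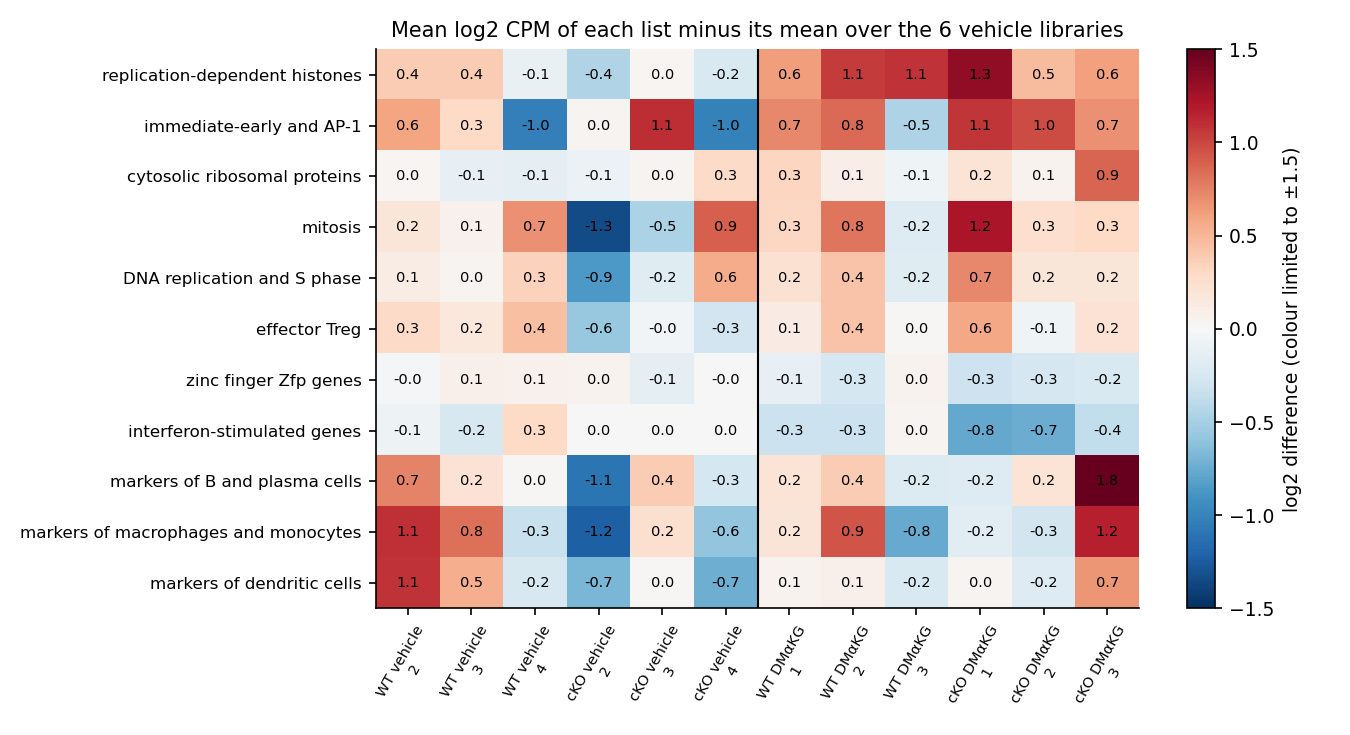
Mean log2 CPM of 11 gene lists in each library (columns) minus the list's mean over the 6 vehicle libraries, with vehicle left of the line and DMαKG right of it, red above and blue below. Histones are at 0.475 or more in every DMαKG library, WT replicate 3 included, and at 0.38 in WT vehicle replicates 2 and 3, the highest vehicle libraries. The interferon-stimulated genes lie at 0.05 in WT DMαKG replicate 3 and between -0.77 and -0.32 in the other DMαKG libraries.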

How the data were processed

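The authors deposited 1 table of 17955 genes with, per the file headers, read counts, FPKM and TPM for each of 12 libraries. The deposited counts are estimated counts, since 36.0% were not whole, and were rounded. The FPKM values the authors deposited were not used, and the deposited TPM values were used only to compare levels between genes. Tools in the submitters' processing notes are DESeq2 1.16.1, featureCounts 1.5.0-p3 and HISAT2 2.0.5, and the build is mm10. The strand setting of the counting is not given.

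Depth was 15706791 to 18878525 counts a library. edgeR 4.0.16 in R 4.3.3 kept 12903 genes by its expression filter, scaled libraries by TMM and fitted genotype and treatment to all 12, with 9 residual degrees of freedom and a common biological coefficient of variation of 19.7%. CPM use the scaled library sizes. The fit was tested on simulated data. The labels do not say whether same-numbered mice were paired. Coordinates and promoters are from RefSeq on GRCm38.p6, and 17901 gene IDs matched. Of 48 interferon-stimulated genes 37 had a promoter there.

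Named were Tkt, Foxp3, Il2ra, Ctla4, Ikzf2 and the Tet genes, the 12 genes per direction with the smallest p and a mean of at least 1 CPM, up to 3 members a list (4 where past the threshold), and the 5 with the smallest genotype difference p. H1f1, H1f2, H2bc18, Stat2 and Irgm1 were added after their values were seen, and a few genes within the rule are not reported here. The comparison, its genes and the lists were chosen with earlier results of these data known. Alternatives were other scaling and filters, DESeq2 1.42.0, limma 3.58.1 voom with quality weights, other model terms, the replicate number as a block, each genotype alone, other thresholds, leaving out libraries and, chosen after seeing the data, taking out library-specific trends with GC content and transcript length.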

Additional observations from a re-analysis of the deposited data

Results flagged for a closer look

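In each treatment group of 6 libraries, the highest or lowest library was marked where its gap to the nearest other, as a share of the group's range, exceeded Dixon's critical value. Chance marks about 1 in 20 groups, and 19 of 216 groups (108 genes) were marked. WT DMαKG replicate 3 stood above the other DMαKG libraries for Usp18 (41.7 CPM), Parp14 (325 CPM), Irgm1 (122 CPM), Egr2 (50.7 CPM), Relt (42.8 CPM), Osm (18.6 CPM), Socs4 (43.0 CPM), Acat2 (15.6 CPM), Kif3c (31.9 CPM) and Nradd (1.28 CPM). All of these are genes lower with DMαKG, and in each the library lies within the vehicle range. cKO DMαKG replicate 3 stood above the others for Jchain (29.8 CPM), S100a9 (11 CPM), Rpl3 (3963 CPM) and Slc16a1 (86.0 CPM). WT DMαKG replicate 2 had 3.80 CPM of Hbb-bs. Among vehicle libraries, cKO replicate 3 was high for Ccr8 (56.3 CPM) and low for Jmjd4 (32.0 CPM), cKO replicate 4 was high for Echs1 (34.0 CPM), and WT replicate 4 was high for Slfn5 (319 CPM).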

How the results depend on the processing

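The 1 gene higher became 84 with DESeq2, 242 with voom and quality weights, 81 without the 3 libraries low on the first component, and 0 within WT, within cKO and at an adjusted p below 0.01. The 0 genes lower became 182, 596 and 189 in the first 3 of these. Leaving out 1 library gave 0 to 258 genes higher and 0 to 602 lower, both highs without WT DMαKG replicate 3. Counts of 1 or 2 there were H1f3 with H1f4 (without cKO vehicle replicate 4) or with Dnah7a (without cKO DMαKG replicate 2), and the lower ones were Fam177a (without WT DMαKG replicate 2) and Tlr1 (without cKO DMαKG replicate 2). The replicate block gave 0 higher and 0 lower, with 840 genes at an unadjusted p under 0.05 against 2030, and the immediate-early median fell to 0.02. Deviations of same-numbered libraries from their group means had r of 0.23, -0.22, 0.22 and 0.019 over 4 pairs. Differently numbered libraries were not compared in this way, so these values cannot show whether the numbers mark pairs. The labels do not name pairs, and the numbers were not taken as such. Other scaling, filters, model terms and removal of the length and GC trend gave 1 and 0. The genotype difference was called in 1 gene by DESeq2, Ncoa7.

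Signs changed in 7 genes near 0 or unlike between genotypes. Il2ra was -0.16 within cKO and ran from -0.044 to 0.116 over the fits that left out 1 library. Tet1 was 0.090 with voom, 0.024 within WT and 0.045 without the 3 libraries, and ran from -0.067 to 0.029 over the fits that left out 1. Slc6a18 was -0.17 with voom and -0.70 within WT, and ran from -0.027 to 0.236. Tkt was -0.020 within cKO, Siglech 0.46 within cKO, and Ncoa7 0.22 and Xcr1 -0.59 within WT. The causes were not tested. Few reads limit the histone genes.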
